A study of Mus musculus with 13 samples.

Results

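Broad domains of H3K9me3 in mouse embryonic stem cells are described here, defined as stretches of 10 kb or more that were marked in every H3K9me3 peak list. Touching or overlapping peaks of the 4 lists were merged on autosomes 1 to 19, which gave 50019 regions. Of these, 10588 held a peak of all 4 lists and are called consensus regions. The 705 consensus regions that were at least 10 kb wide are the broad domains, and the other 9883 are called narrower regions. The domains were thus chosen by the position and width of H3K9me3 peaks in all 4 lists, so their H3K9me3 values below are a description and carry no test.

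The study used J1 mouse embryonic stem cells with an inducible knockout of Setdb1, and every group analysed, the untreated one included, carried that construct. Chromatin immunoprecipitation and sequencing gave peak lists for H3K27me3 in cells given 2.5 µM tamoxifen to ablate Setdb1 (n = 2), for H3K27me3 in cells without tamoxifen (n = 2) and for H3K9me3 in cells without tamoxifen (n = 4). The protocol names DMSO as solvent control, while the sample names only say that no tamoxifen was given, and these cells are called untreated here. H3K9me3 after tamoxifen and the 5 input samples were not analysed here, and the lists cannot show whether Setdb1 was lost. No label says how many clones the line stands for. Separate cultures are not named for the libraries either, so the p-values reflect no more than the spread among these samples, and that spread may be technical. The lists hold positions on mouse build mm9 and no read counts, heights or scores, so the depth is unknown.

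Setdb1 is a methyltransferase that places H3K9me3, and in embryonic stem cells it is brought to endogenous retroviruses and related repeats by KRAB zinc finger proteins through their partner KAP1. H3K9me3 placed in this way keeps such elements silent and can spread into the DNA on either side. H3K27me3 is placed by Polycomb repressive complexes, mostly over CpG-rich starts of developmental genes, and it is the other large repressive histone mark of these cells.

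On the autosomes replicates 1 to 4 of H3K9me3 comprised 17030, 28660, 41393 and 32802 peaks over 47.3, 35.4, 53.5 and 41.3 Mb. Replicate 1 stood apart, because its median peak was 1900 bp wide and those of replicates 2 to 4 were 813 to 838 bp wide. It was called with another version of the peak caller than replicates 2 to 4, so a difference of the caller and a difference of the library cannot be told apart. The H3K27me3 lists held 14903 and 22072 peaks after tamoxifen, and 6917 and 16916 peaks in untreated cells. No pair of lists shared more than 1 identical peak.

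The 705 domains were mostly just past the 10 kb limit, with a thin tail of much longer ones. They covered 9.02 Mb, which is 6.66% of the consensus regions and 18.8% of their bases. Their median width was 11639 bp, with quartiles of 10779 and 13608 bp, against a median of 3120 bp for narrower regions. From 10 to under 11 kb there were 220 domains, from 11 to under 12 kb there were 187, and 185 measured 12 to under 15 kb. Another 90 measured 15 to under 20 kb, 19 measured 20 to under 30 kb, and 4 were 30 kb or wider. Of 717 merged regions of 10 kb or more, 705 were held by 4 lists, 7 by 3 lists and 5 by 1 list. This sharing is partly built in, because 1 bp of a peak was enough to hold a region. Many regions also reached 10 kb only by joining peaks of several lists. Without replicate 1 the same rule gave 208 domains.

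The limit of 10 kb cut through a continuous range of widths. The narrowest members measured 10003 bp on chromosome 5 (120347208 to 120357210), 10003 bp on chromosome 6 (8644150 to 8654152) and 10005 bp on chromosome 7 (49770082 to 49780086). Just outside were regions of 9994 bp on chromosome 11 (70173556 to 70183549), 9991 bp on chromosome 2 (143972010 to 143982000) and 9990 bp on chromosome 3 (11546103 to 11556092).

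How a domain was built differed between the lists. Replicate 1 covered 78.8% of all domain bases, while replicates 2, 3 and 4 covered 51.5%, 60.7% and 54.8%. This difference in cover was not particular to broad domains. Replicates 1 to 4 covered 75.7%, 52.0%, 66.2% and 57.2% of the bases of narrower regions. In consensus regions of 5 to under 10 kb they covered 79.5%, 47.3%, 59.7% and 51.3%. Replicate 1 usually had only 1 peak in a domain, in 511 of 705 domains, whereas replicates 2, 3 and 4 did so in 103, 125 and 106. Such a peak need not fill the domain, and full cover occurred in 19, 4, 27 and 4 domains in replicates 1 to 4. The mean number of pieces per domain was 1.33 in replicate 1 and 2.41, 2.33 and 2.43 in replicates 2 to 4. Domains in 3 or more pieces numbered 32 in replicate 1 and 272, 251 and 284 in replicates 2 to 4. The median width of the widest piece was 9207 bp in replicate 1, against 3427, 4182 and 3741 bp in replicates 2 to 4.

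In replicates 2 to 4 the centre of the domains was covered less than the parts beside it, and in replicate 1 it was covered more. With each domain cut into 3 parts of equal length, the central part was covered over 92.8% of its bases in replicate 1 and over 41.9%, 46.0% and 43.4% in replicates 2 to 4. The parts on either side were covered over 71.7% in replicate 1 and over 56.3%, 68.1% and 60.5% in replicates 2 to 4. From its first to its last peak each list nevertheless spanned most of a domain, with medians of 85.4%, 88.8%, 96.1% and 92.8% of the width in replicates 1 to 4. Replicates 2 to 4 showed 2 shoulders with a dip between them, and replicate 1 a single plateau.

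**Figure D1:**
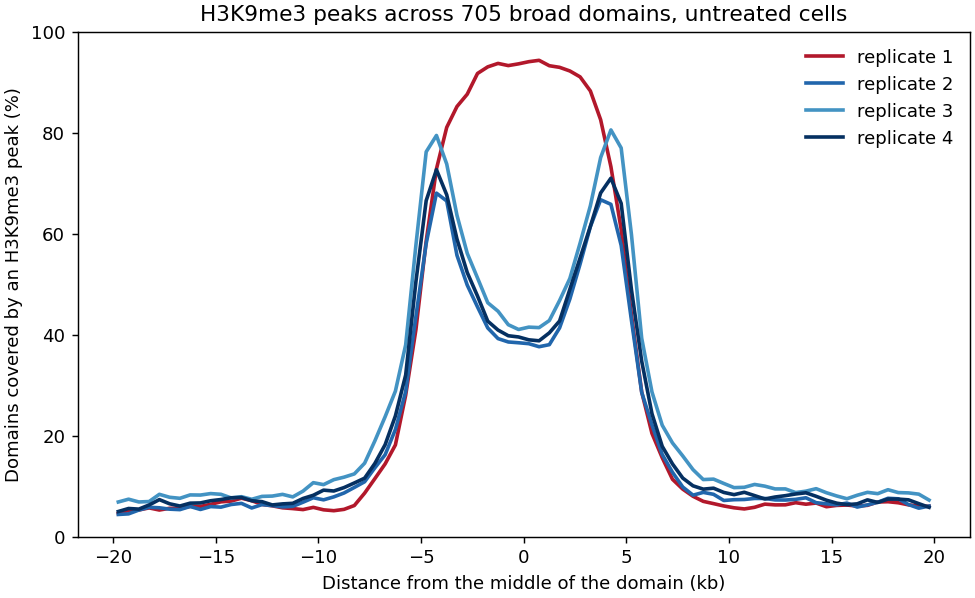
Share of the 705 broad domains covered by an H3K9me3 peak (percent, vertical axis) against the distance from the middle of the domain (kb, horizontal axis), 1 line per untreated replicate. Replicate 1 stays high through the middle, at 94.2% of domains just right of the centre, while replicates 2, 3 and 4 dip to 38.3%, 41.5% and 39.0% there between a shoulder on each side.

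The widths of gaps inside domains had a second maximum in replicates 2 to 4. Gap widths in narrower regions were not measured. Whether this maximum follows from the 10 kb limit that chose the domains was therefore not tested. Replicates 2, 3 and 4 left 992, 938 and 1007 gaps between peaks of a domain, and replicate 1 left 234. Short gaps under 2 kb were the most common in every list, and the counts fell to 45, 62 and 51 at 3 to 4 kb in replicates 2 to 4. A second maximum followed at 6 to 7 kb, with 133, 146 and 150 gaps in replicates 2 to 4 and 4 in replicate 1. Gaps above 8 kb were rare in every list.

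**Figure D2:**
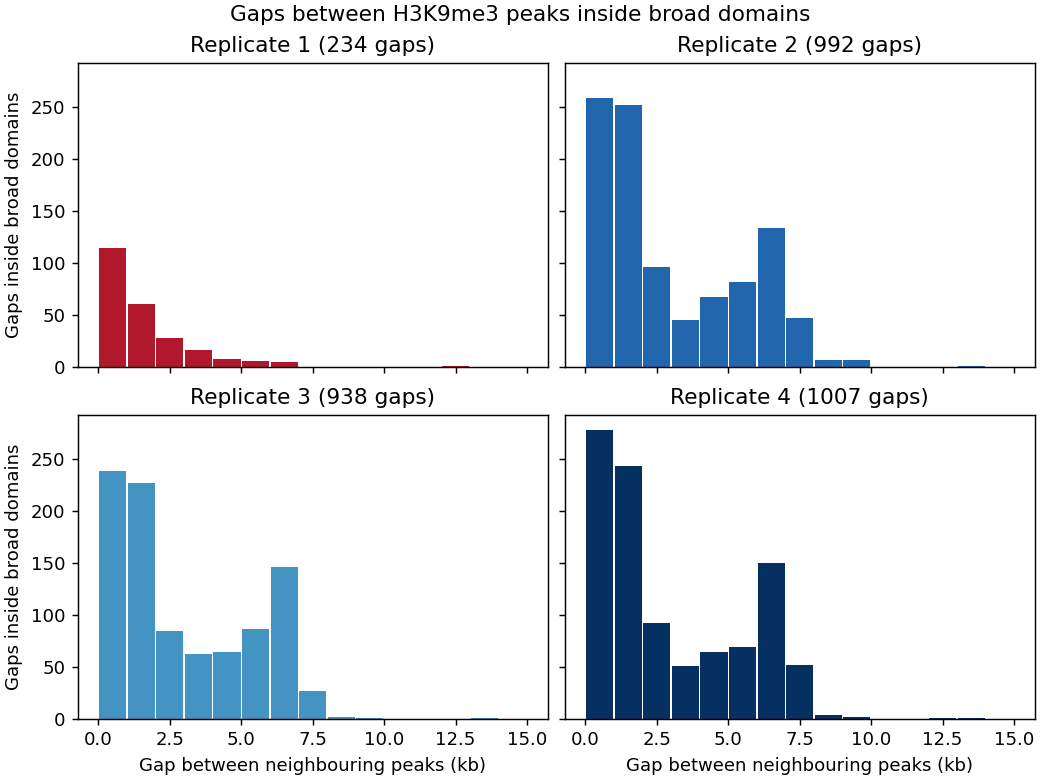
Number of gaps between neighbouring H3K9me3 peaks inside broad domains (vertical axis) by gap width (kb, bins of 1 kb), 1 panel per untreated replicate. Replicates 2 to 4 have a second maximum at 6 to 7 kb, with 133, 146 and 150 gaps, where replicate 1 has 4.

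In most cases these long gaps were the same stretch of DNA in each of replicates 2 to 4. In 285 domains all 3 lists had a gap of 4 kb or more, and in 281 of them a stretch was empty in all 3. That shared empty stretch had a median width of 6088 bp with quartiles of 5203 and 6696 bp, and 220 of the 281 measured 5 to under 8 kb. It was flanked by a median of 2644 bp of domain on the left and 2812 bp on the right. The largest gap differed between the 3 lists by a median of 269 bp, and by 100 bp or less in 81 domains. Replicate 1 filled the shared stretch in all 281 cases, which follows from the rule, because a stretch empty in all 4 lists would have split the domain. In the 424 domains without such a stretch, cover was 75.4%, 62.7%, 72.5% and 66.2% in replicates 1 to 4, and in 313 domains no list had a gap of 4 kb.

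Domains with such a gap included some of the widest. On chromosome 8 a domain of 24526 bp (108999572 to 109024097) was covered over 90.0% in replicate 1 and over 41.0%, 44.3% and 40.3% in replicates 2 to 4. Its gap measured 13648, 13651 and 13662 bp in replicates 2 to 4, so its width was nearly the same in the 3 lists. On chromosome 17 a domain of 24428 bp (36135939 to 36160366) had gaps of 6877, 6885 and 6850 bp in replicates 2 to 4 and none in replicate 1.

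Other domains were filled in every list. The domain with the highest smallest cover lay on chromosome 8 (22975710 to 22985785) and was a single peak in all lists, which covered 94.8%, 96.7%, 99.6% and 98.6% of it in replicates 1 to 4. Next came a domain of 13462 bp on chromosome 2 (174975116 to 174988577), with 93.5% to 100.0% cover and 1 peak in each list, and one of 10097 bp on chromosome 5 (8016423 to 8026519), with 91.8% to 98.3%. A single peak of 10 kb or more was present in all 4 lists in 25 domains, in at least 1 list in 345 and in none in 360. In 181 domains replicate 1 alone had such a peak.

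At the other extreme were domains with almost no cover in replicates 2 to 4. On chromosome 7 a domain of 11938 bp (20877133 to 20889070) lay entirely under a peak of replicate 1, while replicates 2 to 4 covered 1.49%, 1.73% and 1.71% of it. A domain on chromosome 3 (6297236 to 6307881) was covered over 97.9% in replicate 1 and 7.70%, 2.37% and 1.70% in replicates 2 to 4. One on chromosome 14 (110755006 to 110765057) was again a single peak of replicate 1, with 6.87%, 5.62% and 1.87% cover in replicates 2 to 4. Cover under 10% was found in 14, 3 and 10 of the 705 domains in replicates 2, 3 and 4, and in 1 domain in replicate 1.

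Base by base, 36.2% of the domains' length was in peaks of all 4 lists and 39.8% in peaks of exactly 1 list. Replicate 1 was the only list over 31.7% of the length. Within the domains the overlap of bases divided by their union was 0.728 to 0.740 for the 3 pairs among replicates 2 to 4, and 0.448 to 0.463 for the 3 pairs with replicate 1. Merged peaks of replicates 2 to 4 alone reached 10 kb inside 204 of the 705 domains.

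The only H3K9me3 measure independent of the choice was the cover of a list in domains that the other 3 lists had chosen. Without replicates 1, 2, 3 and 4 in turn there were 208, 666, 538 and 626 such domains. The list left out covered 68.0%, 50.1%, 58.4% and 53.1% of the bases of broad domains, against 49.7%, 48.4%, 63.2% and 54.4% of the bases of narrower regions. Broad domains were higher in the lists of replicates 1 and 2 and lower in those of replicates 3 and 4. The mean difference was 3.47 percentage points, within the spread between lists (two-sided exact sign-flip permutation p = 0.75, n = 4, smallest possible 0.125). Without replicate 1 as a list left out, the mean difference was -1.47 points.

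A list left out nearly always had some peak in a broad domain, in 98.6%, 99.5%, 100.0% and 99.8% of them, against 61.5%, 91.0%, 98.8% and 96.0% of narrower regions. Broad domains are wider and so offer more bases to hit. The dip in the centre was also present in lists left out, with 40.1%, 44.9% and 41.5% of the central part covered in replicates 2 to 4. The parts beside it were covered over 55.1%, 65.1% and 59.0%. Replicate 1 still helped to choose these domains, so stretches that it filled alone among the choosing lists could remain in them. Whether replicates 2 to 4 dip in domains chosen without replicate 1 was not tested. Replicate 1 left out again had the opposite profile, with 80.1% of the central part and 61.9% of the parts beside it.

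Along the genome the broad domains lay on every autosome, at 2.92 per 10 Mb. Their number ranged between 13 on chromosome 19 and 52 on chromosome 6. Per length, chromosome 13 was the densest, with 4.26 per 10 Mb, followed by chromosome 17 with 4.01, and chromosome 2 was the sparsest with 1.73. As a share of the consensus regions of a chromosome, domains made up 5.06% on chromosome 12 (95% Clopper-Pearson interval 3.30% to 7.38%) to 8.80% on chromosome 15 (6.30% to 11.9%). These intervals cover counting error only, and those of the lowest and the highest chromosome overlap.

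Domains were more frequent toward the start of the mapped chromosomes and, less clearly, toward the end. Mouse chromosomes carry the centromere at their start, and the mapped span was taken as the stretch between the first and last peak of any list. The first 10% of that span held 143 of the 705 domains, or 20.3% (17.4% to 23.4%), against 17.2% of narrower regions. The second 10% held 99, or 14.0% (11.6% to 16.8%), against 14.9% of narrower regions. The last 10% held 79, or 11.2% (8.97% to 13.8%), against 9.33% of narrower regions, and its interval includes an even share of 10%. On 15 of 19 chromosomes the first 10%, and on 12 the last 10%, held more domains than the mean of that chromosome. Closer in, the first 2 Mb held 37 domains, or 5.25%, against 3.60% of narrower regions, and the last 2 Mb held 23, or 3.26%, against 1.40% of narrower regions. Narrower regions were also more frequent at the start, and none of these differences was tested.

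Broad domains were modestly clustered. Another broad domain lay within 1 Mb of 413 of the 705, or 58.6% (54.8% to 62.2%). The background over all consensus regions was 52.2%, and the share of narrower regions with a broad domain that close was 51.8%. Nearness is mutual and the 413 formed 144 runs, so domains do not count separately and the interval is too narrow. The difference from the background was not tested. The median gap to the nearest other broad domain was 734501 bp for broad domains and 933295 bp for narrower regions. Within 100 kb there was another for 113 of 705 broad domains and for 1182 of 9883 narrower regions, and within 10 kb for 3.26% of broad domains and 1.97% of narrower regions. Without replicate 1 and without replicate 3, 43.75% and 49.4% of the then fewer domains had another within 1 Mb. Fewer domains alone lower this share, and no background was computed for these sets. Whether clustering was weaker in them was therefore not tested.

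**Figure D3:**
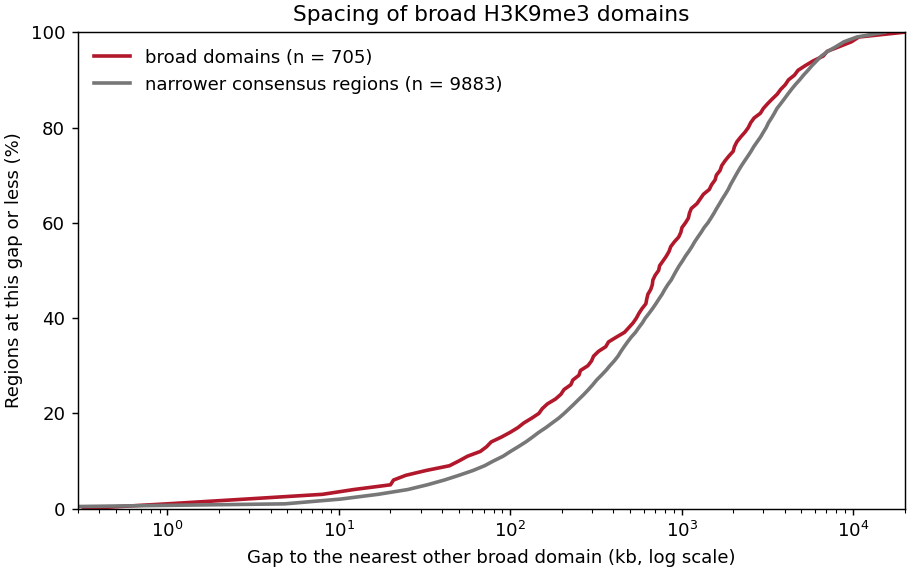
Cumulative share of regions (percent, vertical axis) against the gap to the nearest other broad domain (kb, log scale), for the 705 broad domains and the 9883 narrower consensus regions. The line of broad domains lies to the left of that of narrower regions over most of the range, with medians of 734501 and 933295 bp.

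Linked by gaps of at most 100 kb, 113 domains formed 49 runs, of which 12 had 3 or more members. Ordered by number of domains and then by span, the first 3 runs had 4 domains each and all lay on chromosome 6. The shortest of them spanned 148821 bp (37685758 to 37834578), held 8 consensus regions in all and was covered over 31.2%, 59.6%, 70.7% and 45.1% in replicates 1 to 4. The next spanned 149364 bp near the start of the chromosome (3596941 to 3746304), held no consensus region other than its 4 domains and was covered over 18.9% to 22.3%. The third spanned 190403 bp (128853112 to 129043514) with 9 consensus regions and 27.1% to 49.6% cover. Runs of 3 on chromosome 16 (98227936 to 98290080) and chromosome 10 (41492481 to 41570244) came next in that order.

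The only run of 3 domains with gaps of at most 10 kb lay on chromosome 10 (82834260 to 82949972), where they filled 109666 of 115713 bp. It included the widest domain of the genome, 63134 bp (82886839 to 82949972), and a neighbour of 30228 bp, rank 4 by width, (82855524 to 82885751), which were 1087 bp apart. In the widest domain replicates 1 to 4 had 5, 6, 9 and 6 pieces and the widest piece measured 30231, 37728, 13957 and 22003 bp. On chromosome 15 a gap of 323 bp, the smallest between any domains, parted one of 10903 bp from one of 11134 bp (82419815 to 82442174).

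On a scale of 1 Mb, 413 domains fell into 144 runs. The longest run had 11 domains over 4691527 bp of chromosome 13 (60296534 to 64988060), where 47 consensus regions lay in all. The next had 7 domains and 57 consensus regions over 2394222 bp of chromosome 12 (19711123 to 22105344). No annotation of build mm9 was used here, so the genes and repeats in these runs are not named.

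The neighbourhood of broad domains held somewhat more H3K9me3 than that of narrower regions. Within 50 kb of either side a broad domain had a mean of 1.16 other consensus regions and a narrower region 1.01, while 43.0% of broad domains and 44.6% of narrower regions had none. Counting merged regions of any list, the means were 4.77 and 3.92. The 50 kb on each side were covered by H3K9me3 peaks over 4.69%, 4.94%, 6.60% and 5.35% in replicates 1 to 4 beside broad domains, and over 4.03%, 3.41%, 4.97% and 3.95% beside narrower regions. All 4 lists had the higher cover beside broad domains, a description without test since the same lists chose the regions.

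H3K27me3 took no part in the choice of the domains, and it was nearly absent from them in both states. After tamoxifen, H3K27me3 peaks covered 0.167% and 0.235% of the bases of broad domains in replicates 1 and 2, and in untreated cells they covered 0.229% and 0.215%. The same libraries covered 0.940% and 1.35% of the mapped autosomes after tamoxifen and 1.00% and 1.17% in untreated cells. Cover inside the domains was thus 0.174 to 0.229 times that of the autosomes in the 4 libraries. The mean was 0.201% ± 0.0479 after tamoxifen and 0.222% ± 0.00964 in untreated cells (SD, n = 2 each), and untreated values lay between the tamoxifen values. The difference of -0.0206 percentage points was within the spread between libraries (two-sided exact permutation p = 1.0, smallest possible 0.333). Among the libraries numbered 1, which share a caller version, it was -0.0613 points, and among those numbered 2 it was 0.0201 points, so its sign differed between the versions.

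Only 10 broad domains held any H3K27me3 peak. This is 1.42% of them (0.682% to 2.59%), where the background over consensus regions was 1.26%. By library, 7 and 10 domains held a peak after tamoxifen, and 7 and 9 in untreated cells, against 40, 93, 29 and 61 of the 9883 narrower regions in the same order of libraries. All 4 lists had a peak in 7 domains, or 0.993% (0.400% to 2.04%), against a background of 0.198%. The same 7 were those held by both tamoxifen lists (background 0.331%) and by both untreated lists (background 0.264%). Broad domains are wider than the other consensus regions and offer more bases to any peak, so their shares are not per base.

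No domain had H3K27me3 in both lists of a treatment state and in neither list of the other. In 0 of 705 did both tamoxifen lists and no untreated list have a peak, where the background was 0.0661%, and 0 had the reverse, where the background was 0.0189%. A count of 0 allows a share of up to 0.426%, which is above both backgrounds. In 0 domains did cover in both tamoxifen libraries exceed that in both untreated libraries (background 0.0756%). In 2 domains both tamoxifen libraries lay below both untreated libraries (0.284%, background 0.0661%). The interval of that share, 0.0344% to 1.02%, includes the background. Only regions with a peak in both untreated lists can lie below in this way. Such regions made up 0.993% of the broad domains, against a background of 0.264%.

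The first of these 2, on chromosome 11 (11920889 to 11931948), was the broad domain with the most H3K27me3. Of its 11060 bp, 67.9% and 82.1% were under H3K27me3 peaks after tamoxifen, and 90.3% and 85.2% in untreated cells. The tamoxifen values lay below the untreated ones without overlap, by a margin of a few percentage points between the nearest pair. H3K9me3 covered 42.7%, 62.4%, 94.3% and 93.5% of the same domain in replicates 1 to 4, so a large part of it was called for both marks. It alone held 49.8% and 42.8% of the H3K27me3 bases in broad domains after tamoxifen, and 48.5% and 48.6% in untreated cells.

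The second, on chromosome 13 (64264661 to 64276140, 11480 bp), had small peaks of 294 and 104 bp after tamoxifen, against 608 and 1009 bp in untreated cells. The groups did not overlap, but the peaks filled under 9% of the domain. It belongs to the run of 11 domains on that chromosome.

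The remaining 5 of these 7 domains had H3K27me3 in all 4 lists with overlapping groups. On chromosome 2 (174116891 to 174127507) it covered 2837 and 4070 bp after tamoxifen, and 4850 and 3095 bp in untreated cells. On chromosome 14 (68733942 to 68744826) the values were 1762 and 1232 bp after tamoxifen, and 2468 and 1195 bp in untreated cells. On chromosome 13 (47099246 to 47109839) they were 1446 and 663 bp after tamoxifen, and 1595 and 582 bp in untreated cells. In these 3 domains, as in the one on chromosome 11, the untreated replicate 1 had the most.

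The other 2 were split by replicate number and not by treatment. On chromosome 1 (6418806 to 6430982) cover was 212 and 2372 bp in tamoxifen replicates 1 and 2, and 395 and 1601 bp in untreated replicates 1 and 2. On chromosome 5 (77445614 to 77456513) it was 1028 and 167 bp in tamoxifen replicates 1 and 2, and 705 and 134 bp in untreated replicates 1 and 2.

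In the last 3 of the 10 domains H3K27me3 was confined to libraries numbered 2. The domain of 39373 bp at the start of chromosome 9 (3000007 to 3039379) had 0 and 1832 bp after tamoxifen, and 0 and 2163 bp in untreated cells. It was also the third widest domain, a near-complete single peak in H3K9me3 replicate 1 (97.3%) and 9 or 10 pieces in replicates 2 to 4 (23.5% to 26.3%). On chromosome 6 (3150688 to 3165515) the values were 0 and 776 bp after tamoxifen, and 0 and 181 bp in untreated cells. On chromosome 18 (7317028 to 7327832) the tamoxifen replicate 2 alone had a peak, of 896 bp.

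**Figure D4:**
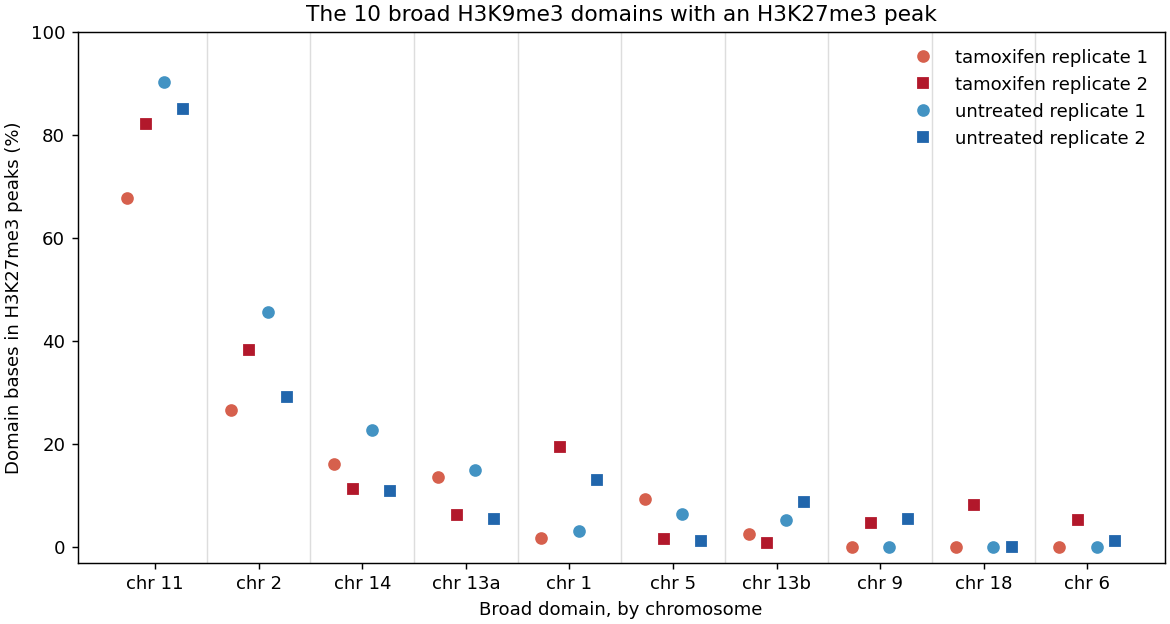
Share of bases under H3K27me3 peaks (percent, vertical axis) in each of the 10 broad domains with any H3K27me3, ordered by mean cover and named by chromosome, with 1 point per library and tamoxifen left of untreated. The domain on chromosome 11 stands apart at 67.9% and 82.1% after tamoxifen and 90.3% and 85.2% in untreated cells, and chromosome 13b is the domain from 64264661.

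Broad domains had slightly more H3K27me3 per base than narrower regions, and 1 domain held much of it. Broad domains had 0.167% and 0.235% after tamoxifen and 0.229% and 0.215% in untreated cells, against 0.0989%, 0.200%, 0.112% and 0.155% in narrower regions in the same order of libraries. Broad domains were higher in 4 of 4 libraries, by a mean of 0.0700 percentage points (two-sided exact sign-flip permutation p = 0.125, n = 4, the smallest possible). Without the domain on chromosome 11, broad domains had 0.0842%, 0.135%, 0.118% and 0.111%, and the mean difference turned to -0.0297 points. No narrower region was left out in return, so this step could only lower the broad side. By width class, regions under 2 kb had 0.219% and 0.500% after tamoxifen and 0.230% and 0.482% in untreated cells, above the broad domains in each library, and regions of 2 to under 5 kb had 0.0603% to 0.168%.

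Beside the domains H3K27me3 was lowest close by and higher at 20 to 50 kb, without a further increase from 50 to 100 kb. Taken as the mean of each domain's own sides, cover in the first 5 kb was 0.202% and 0.456% after tamoxifen, and 0.277% and 0.419% in untreated cells. From 20 to 50 kb it was 0.827% and 1.03% after tamoxifen, and 0.824% and 0.986% in untreated cells. From 50 to 100 kb it was 0.770% and 1.02% after tamoxifen, and 0.814% and 0.971% in untreated cells. The values at 20 to 50 kb were 0.766 to 0.880 times the mean of the autosomes. Cover was lower in the first 5 kb than at 20 to 50 kb in 4 of 4 libraries. This rise was not particular to broad domains, because narrower regions had it in 4 of 4 libraries too. Beside narrower regions, tamoxifen replicate 2 went from 0.515% in the first 5 kb to 0.909% at 20 to 50 kb. Untreated replicate 2 went from 0.426% to 0.792% there. From 50 to 100 kb these 2 libraries had slightly more beside narrower regions, 0.939% and 0.814%.

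Compared with narrower regions, broad domains had less H3K27me3 within 10 kb, while the direction within 50 kb depended on how overlapping sides were counted. In the next values each region has its own sides, a measure added after the data had been examined. Within 10 kb it covered 0.338% and 0.521% after tamoxifen and 0.368% and 0.473% in untreated cells beside broad domains, against 0.363%, 0.600%, 0.380% and 0.502% beside narrower regions. Within 50 kb it covered 0.663% and 0.879% after tamoxifen and 0.676% and 0.813% in untreated cells beside broad domains, against 0.559%, 0.826%, 0.588% and 0.719% beside narrower regions. The mean differences were -0.0361 points within 10 kb and 0.0851 points within 50 kb, each with the same sign in 4 of 4 libraries (two-sided exact sign-flip permutation p = 0.125, n = 4, the smallest possible). With overlapping sides counted once, broad domains were again lower within 10 kb in 4 of 4 libraries, but within 50 kb they were lower in 3 of 4. Within 50 kb the values were then 0.696% and 0.924% after tamoxifen and 0.713% and 0.856% in untreated cells beside broad domains, against 0.683%, 0.982%, 0.724% and 0.862% beside narrower regions.

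**Figure D5:**
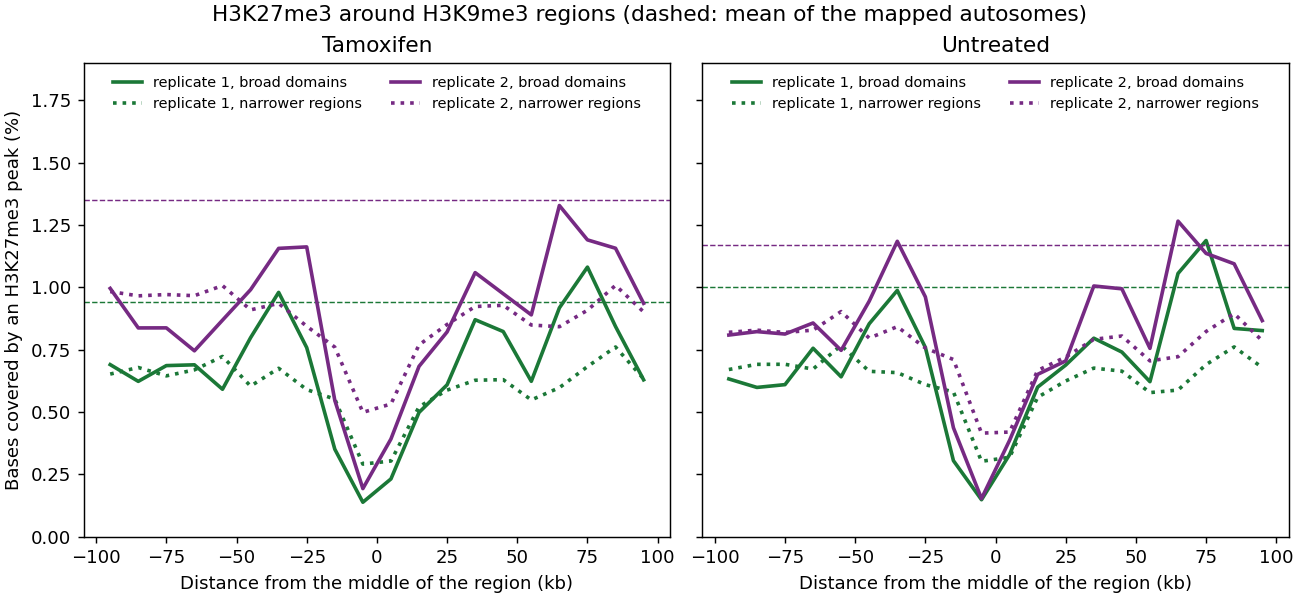
Share of bases under H3K27me3 peaks (percent, vertical axis) in bins of 10 kb against the distance from the middle of the region (kb), with tamoxifen in the left panel and untreated cells in the right one, solid for broad domains and dotted for narrower regions; dashed horizontal lines give the mean of the mapped autosomes for each library. Every library has its lowest value for broad domains in the bin left of the middle, at 0.138% and 0.193% after tamoxifen and 0.148% and 0.153% in untreated cells.

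The tamoxifen difference in H3K27me3 beside the domains was within the spread between libraries for the full lists and changed sign with equal numbers of peaks. With overlapping sides counted once, the 50 kb beside broad domains were covered over 0.696% and 0.924% after tamoxifen, and over 0.713% and 0.856% in untreated cells. The untreated values lay inside the range of the tamoxifen values. Means were 0.810% ± 0.161 and 0.785% ± 0.101 (SD, n = 2 each), a difference of 0.0256 points (two-sided exact permutation p = 1.0, smallest possible 0.333). It was -0.0168 points among libraries numbered 1 and 0.0680 points among those numbered 2. With the 6917 widest peaks of each list, cover was 0.575% and 0.692% after tamoxifen, and 0.713% and 0.708% in untreated cells. The groups then did not overlap, and the difference of -0.0772 points had the smallest p that 2 libraries against 2 allow (two-sided exact permutation p = 0.333). Untreated replicate 1 has 6917 peaks in all, so it lost none, while the other lists lost their narrower peaks. Its median peak was 2526 bp wide, against 783 bp in untreated replicate 2 and 731 and 725 bp after tamoxifen. Whether the separation follows from this trimming was not tested.

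Domain by domain, 227 of 705 had H3K27me3 within 50 kb in at least 1 list (32.2%, background 34%), and 85 in all 4 lists (12.1%, background 11.2%). Both tamoxifen lists had it beside 120 domains (17.0%, background 16.7%), and both untreated lists beside 86 (12.2%, background 11.9%). In 6 domains both tamoxifen lists and no untreated list had it (0.851%, background 1.63%), and in 0 the reverse held (background 0.0944%). Cover in both tamoxifen libraries lay above both untreated libraries beside 26 domains (3.69%, background 3.43%) and below them beside 17 (2.41%, background 2.54%). All of these shares were close to the background except that of the 6, which was lower than the background and whose interval of 0.313% to 1.84% includes it.

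The 6 domains with H3K27me3 beside them in tamoxifen lists alone had peaks of modest size. The longest total was 918 and 720 bp beside a domain on chromosome 1 (12576915 to 12593118), against 0 bp in both untreated lists. The others lay on chromosomes 5, 14, 15 and 19, with 386 to 872 bp per tamoxifen library. These 6 were singled out after their values had been seen.

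The nearest H3K27me3 regions held by both lists of a state lay far off. There were 7220 such regions after tamoxifen and 5359 in untreated cells. More regions alone shorten the distance, so the distances do not compare the 2 states. The median distance to those of both tamoxifen lists was 274 kb for broad domains and 297 kb for narrower regions. To those of both untreated lists it was 312 kb for broad domains and 334 kb for narrower regions. Without overlap, the closest was a domain on chromosome 9 (21979816 to 21992400), at 456 bp after tamoxifen and 87 bp in untreated cells. On chromosome 2 (116357520 to 116372937) the distances were 3383 bp after tamoxifen and 499 bp in untreated cells. The next 3, on chromosomes 14 (56413100 to 56423467), 15 (34149702 to 34164583) and 17 (35499852 to 35513814), lay at 4557, 3508 and 2261 bp after tamoxifen, and at 3293, 3412 and 3433 bp in untreated cells.

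Among the 10 widest domains only the one at the start of chromosome 9 held H3K27me3. The second widest, 49731 bp on chromosome 4 (155508447 to 155558177), had 4165 and 4065 bp within 50 kb after tamoxifen, and 5048 and 4651 bp in untreated cells, with no overlap between the groups. The sixth, on chromosome 8, had 4358 and 7546 bp after tamoxifen, and 6140 and 6541 bp in untreated cells, with overlap. The widest had 1032 and 1777 bp after tamoxifen, and 1431 and 2290 bp in untreated cells, also with overlap. For the seventh the values were 0 and 2326 bp after tamoxifen, and 0 and 2926 bp in untreated cells, again with overlap. A separation like that of the second was found beside 2.41% of all broad domains (background 2.54%). The domains of rank 5, 7, 8, 9 and 10 lay on chromosomes 6, 17, 3, 10 and 18 and measured 25227, 24428, 23937, 22951 and 22670 bp.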

How the data were processed

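The authors deposited 1 list per library of 3 columns (chromosome, start, end) per peak, which are positions and not a measure of strength. Per the submitters' processing notes, Bowtie 0.12.7 and MACS2 were used on build mm9, with version 2.0.10 of MACS2 for the libraries numbered 1 and 2.1.0 for the others. Each of the calling mode, threshold, control and treatment of reads from repeats can change peak width, and none is given in the sources used here. H3K9me3 replicate 4 has no antibody entry and was kept by its title.

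Peaks were merged where they touched or overlapped, and a list held a region from 1 bp of overlap. Cover is the percent of bases in peaks. Shares have 95% Clopper-Pearson intervals, and a count of 0 allows 3 counts of the total. These cover counting error only. Group means were compared by two-sided exact permutation, and region classes within a library by exact sign flips. Tools were Python 3.11.15, SciPy 1.17.1, NumPy 2.4.6, Matplotlib 3.10.9 and pandas 2.3.3, and the code was tested on simulated data.

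The domains, measures and lists were chosen with earlier results of these data known, and the comparison of each region's own sides was added after the data had been examined. Regions named are the 10 widest domains, those with H3K27me3, the first 5 runs by number of domains and then span, the 3 with the lowest and highest smallest cover, the 3 on either side of 10 kb and the 5 closest to H3K27me3 of both untreated lists without overlap. Other regions were named after their values were seen. Alternatives were other ways of merging, other minimum widths of peaks and domains, other flanks, equal numbers of widest H3K27me3 peaks and leaving out each library. No genome or annotation of mm9 was used here, so no gene or sequence is given.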

Additional observations from a re-analysis of the deposited data

Results flagged for a closer look

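In H3K9me3 replicate 1 the mean number of pieces per broad domain (1.33), the number of gaps inside broad domains (234), the cover of the central part (92.8%) and the cover of the central part when replicate 1 was left out of the choice (80.1%) each lay far from those of replicates 2 to 4. The gap to the nearest replicate took up more of the range of the 4 values than Dixon's 95% limit for 4 samples. Of 10 measures looked at, these 4 passed, and chance marks about 1 in 20 groups, but the 4 measures describe the same peaks and do not count separately. The first 3 describe domains that these same lists chose, so they are partly fixed by the rule and are no test. The last uses 208 domains chosen without replicate 1, while the values of replicates 2 to 4 come from domains that replicate 1 helped to choose. Those domains could keep stretches that replicate 1 filled alone among the choosing lists. The 4 values of this measure are thus not like for like, and they are no test either. Replicate 1 also differs in the version of the peak caller, so library and caller cannot be told apart.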

How the results depend on the processing

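Of 78 alternatives to the 6 main values, 61 left the direction and the side of the threshold, or for the count and share roughly the size, as they were. Differences moved in size in several of them, as the ranges show. At a minimum of 15 kb, 113 domains remained, of which 26.5% had another within 1 Mb. With peaks up to 1 kb apart joined that share was 68.7%. Leaving out 1 H3K9me3 list gave 208 to 666 domains and shares of 43.75% to 56.9%. These shares depend on the number of domains and have no background of their own, so they do not compare the strength of clustering. Without replicate 1, which gave the 208, the reason for the lower number was not separated into filled gaps and wider ends. The difference in a list left out was -1.47 to 6.23 points, negative without replicate 1.

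The tamoxifen difference inside domains was -0.103 to 0.0133 points when 1 library was left out, with 0.0133 without H3K27me3 tamoxifen replicate 1. The difference beside domains was -0.0886 to 0.140 points when 1 library was left out. It was below 0 without H3K9me3 replicate 1 (-0.0445), without H3K27me3 tamoxifen replicate 2 (-0.0886) and without untreated replicate 1 (-0.0462). It was also below 0 at 15 kb (-0.0400), with equal numbers of widest peaks (-0.0772) and without H3K27me3 peaks under 500 bp (-0.00643). The difference between broad domains and narrower regions was 0.0218 to 0.312 points when 1 library was left out, -0.112 at 15 kb, and -0.0297 without the chromosome 11 domain, an alternative chosen after seeing the data. The cause of these changes was not tested. None of these p-values could reach 0.05.

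With the replicate number as a block the tamoxifen differences were -0.0206 inside (exact sign-flip permutation p = 1.0) and 0.0256 beside the domains (p = 1.0), and -0.0772 beside them with equal numbers of widest peaks (p = 0.5). No call changed, since none was possible. Deviations of same-numbered libraries correlated at -0.0823 over 31429 merged H3K27me3 regions and 0.356 over the 4768 held by all 4. Same-numbered libraries share the caller version, and nothing else that pairs them is given. With 2 pairs the data cannot show a pairing. Because peaks have no height, depth could not be equalised.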
